A study of Mus musculus with 12 samples.

Results

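Solute carrier genes were examined in maps of the 5′ UTRs that the translation factor eIF4G2 contacts in mouse primary cortical neurons. The genes were chosen by name, as every listed 5′ UTR whose gene symbol is Slc followed by a family number, except the mitochondrial carriers of the Slc25a family, of which 10 were left out. This gave 59 of 3366 named 5′ UTRs (1.75%), from 27 families. They held 287 of 15767 tags (1.82%).

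The assay was CLIP, in which ultraviolet light links a protein to the RNA it touches, the protein is precipitated and the attached RNA fragments are sequenced as tags. Resting neurons were compared with neurons depolarized by 55 mM KCl for 1 h, after silencing for 2 h with TTX, a sodium channel blocker, and DL-AP5, an NMDA receptor blocker, and before 30 min in fresh medium. All neurons, resting ones included, received cycloheximide, which stalls elongating ribosomes, for 2 min before crosslinking. The cultures were made from the cortex of embryonic CD-1 mice, with no allele named, and the study's text has TTX and DL-AP5 in the fresh medium too. There were 6 resting libraries and 5 depolarized ones, since the table labelled as depolarized replicate 5 is a copy of the one for resting replicate 5 and entered once, as resting. The study's methods call the replicates biological, each from several culture dishes, and the labels do not say how the cultures were separated. P values of the tests across libraries therefore measure the spread between these libraries. Those of the other tests rest on counts alone and carry no such spread.

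Solute carriers are membrane proteins that move amino acids, neurotransmitters, ions, metals, sugars and nucleotides across the plasma membrane and the membranes of vesicles and organelles. In cortex they clear glutamate and GABA from the synapse, fill synaptic vesicles, set the chloride gradient that inhibitory receptors use, and bring in glucose, lactate and creatine. eIF4G2 is a relative of the scaffold factor eIF4G that lacks the binding site for the cap-binding protein, and it takes part in translation initiation on selected mRNAs, among them mRNAs with upstream open reading frames.

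The 6-base motif CGCGGC, which is linked to eIF4G2 in the study, occurred in the 5′ UTR of 7 of the 9 solute carrier genes with at least 10 tags. The windows below show it in genes the results turn on and are read 5′ to 3′ on the strand of the mRNA, with the motif in capitals and 12 bases on either side. Sequences are from GENCODE M21 transcripts on GRCm38. Each window lies within 1 exon of the 5′ UTR. 
Slc6a17, chr3:107517865-107517894, minus strand: acgcgctccctcCGCGGCgggatctgagcc
Slc22a17 first site, chr14:54913068-54913097, minus strand: ggaggaggcgccCGCGGCtgcagagctgca
Slc22a17 second site, chr14:54912976-54913005, minus strand: tcattctctcggCGCGGCccatagggcccc
Slc6a8, chrX:73673195-73673224, plus strand: ctttgagtccgcCGCGGCccggagagcggc
Slc1a2, chr2:102658912-102658941, plus strand: accggtctgcccCGCGGCgaagcacacaga
The tables give 1 count per 5′ UTR and no tag positions, so whether tags lie on these sites was not tested.

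The libraries held between 264 and 5240 tags on all 5′ UTRs, so most solute carriers were sampled thinly. 1 gene, Slc29a2, an equilibrative nucleoside transporter named here after its values were seen, had 0 tags in every library, 21 had 1 tag, 28 had 2 to 9 and 9 had at least 10. The share with at least 10 tags was 15.3%, against 9.42% of all named 5′ UTRs (317 of 3366), and the share with 1 tag was 35.6%, against 40.8%. The 9 genes with at least 10 tags together held 145 tags, 50.5% of those on solute carriers. Replicate 1 of the 2 conditions supplied 62.7% of the solute carrier tags, against 53.7% of all tags, and 21 of the genes were tagged in replicate 1 alone. 27 were tagged in 1 library. 6 were tagged in at least 5 libraries.

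**Figure D1:**
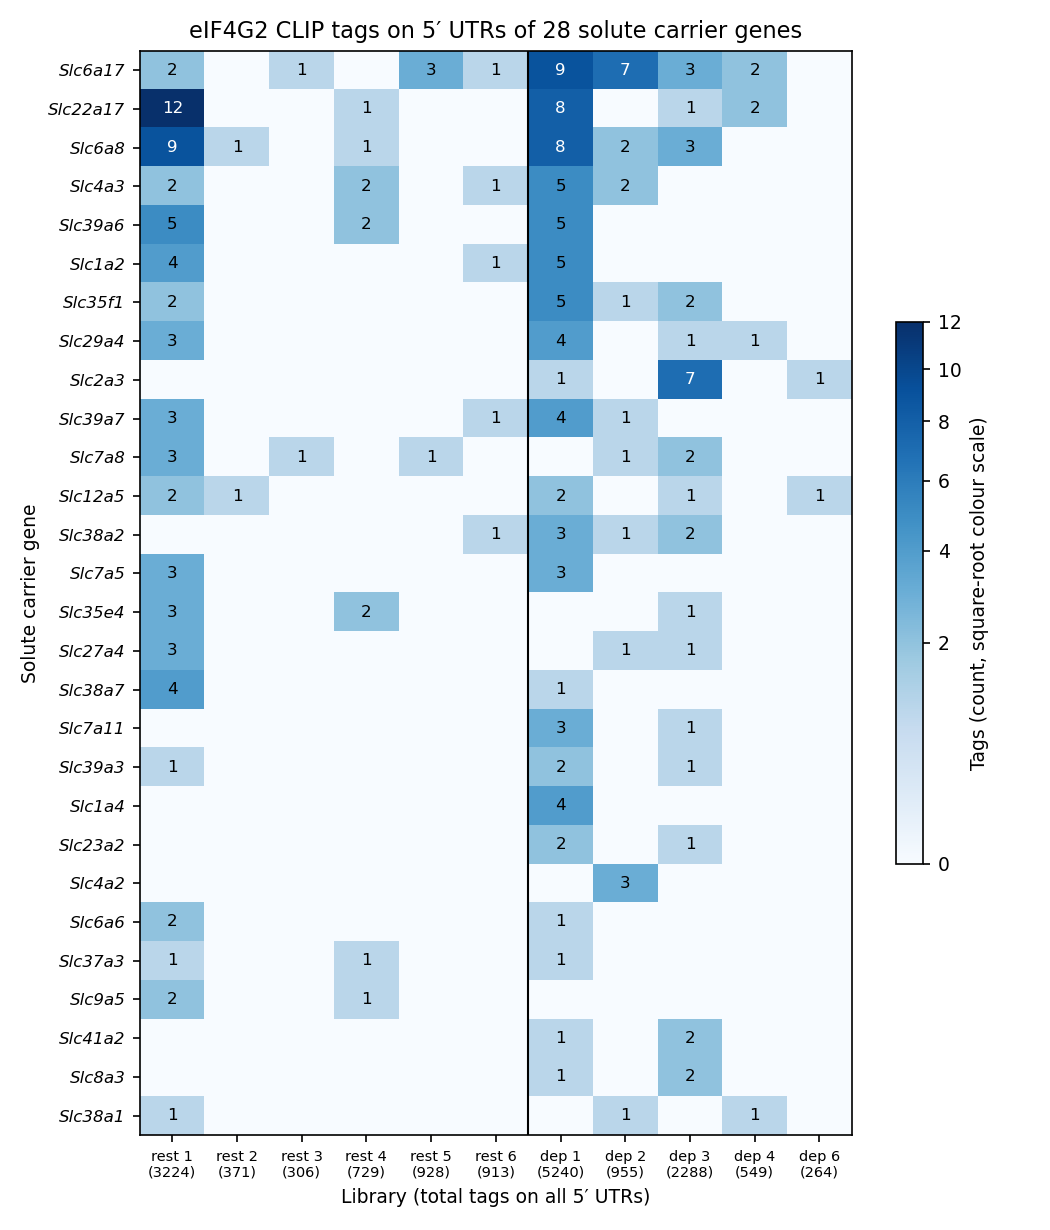
Tags on the 5′ UTRs of 28 solute carrier genes with at least 3 tags (rows, by total) in the 6 resting and 5 depolarized libraries (columns, with the total tags of each library under its name), where the number in a square is the tag count and an empty square is 0. Most squares above 3 tags lie in replicate 1, the deepest library of each condition, with 7 tags of Slc6a17 in depolarized replicate 2 and 7 of Slc2a3 in depolarized replicate 3 as the exceptions.

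The share of tags that fell on solute carriers differed between conditions by less than it varied among libraries. At rest it was 2.45% in replicate 1, and between 0.548% and 1.78% in the others, with a mean of 1.30% ± 0.767 (SD, n = 6). After depolarization it was 1.93% in replicate 1, 2.51% in replicate 2, 1.79% in replicate 3, 1.09% in replicate 4 and 1.14% in replicate 6, with a mean of 1.69% ± 0.593 (SD, n = 5). The ranges overlapped, and of the 5 replicate numbers present in both conditions 3 had a higher share after depolarization. Over summed tags the share was 112 of 6471 (1.73%, Wilson 95% interval 1.44 to 2.08) at rest and 175 of 9296 (1.88%, 1.63 to 2.18) after depolarization. Without the libraries of replicate 1 the summed shares were 1.02% and 1.82%. A tag count reflects both how much of an mRNA was present and how much of it was bound, and with no input library fewer cells of a type, less RNA per cell and less binding cannot be told apart.

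**Figure D2:**
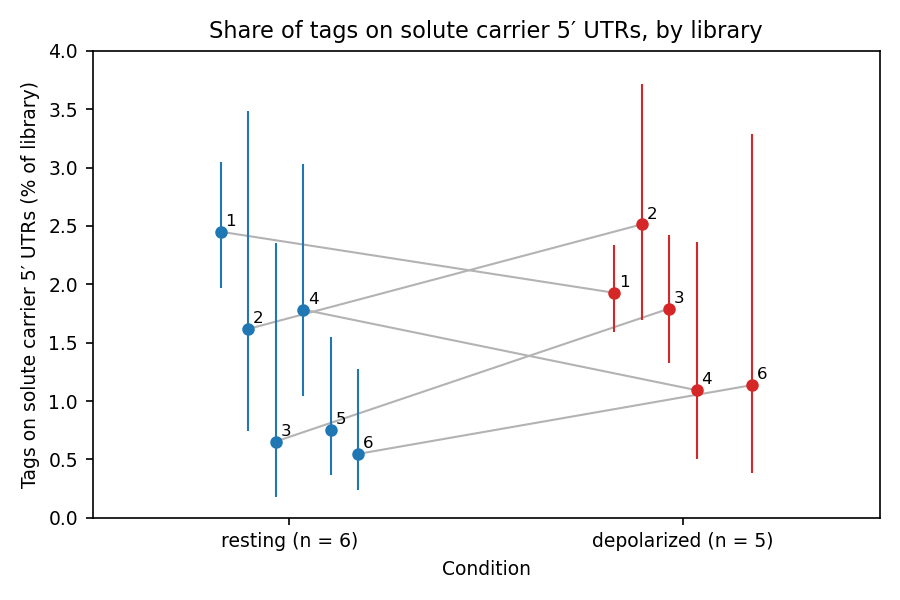
Percent of each library's tags that fell on solute carrier 5′ UTRs, at rest (blue, n = 6) and after depolarization (red, n = 5), with Wilson 95% intervals, the replicate number beside each point and grey lines joining the same number. The lines for replicates 1 and 4 go down and those for replicates 2, 3 and 6 go up, and the 2 conditions overlap.

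By summed tags, 23 solute carriers were tagged in both conditions. 14 of the 58 with a tag (24.1%) were tagged only at rest, against a background of 27.9% of all tagged 5′ UTRs, and 21 (36.2%) only after depolarization, against 36.3%. Of these, 11 and 10 rested on 1 tag. The most tags that a gene seen only at rest had were 3, and only after depolarization 9.

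Transporters of amino acids and neurotransmitters, 17 genes, carried 123 tags, 42.9% of those on solute carriers. Their mean share of a library was 0.589% ± 0.260 (SD, n = 6) at rest and 0.707% ± 0.494 (n = 5) after depolarization.

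Slc6a17, which loads neutral amino acids into synaptic vesicles, had the most tags of any solute carrier, 28, and ranked 68 among all 5′ UTRs. Resting replicates 1 to 6 had 2, 0, 1, 0, 3 and 1 tags, and depolarized replicates 1, 2, 3, 4 and 6 had 9, 7, 3, 2 and 0. The summed counts were 7 and 21, a ratio of 2.09 per tag of depth with a 95% exact counting interval of 0.855 to 5.82. As a share of a library's tags it ranged from 0 to 0.327% at rest and was 0.172%, 0.733%, 0.131%, 0.364% and 0% after depolarization. Depolarized replicates 2 and 4 were the highest by share, and the groups overlapped.

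Slc6a8 brings creatine into cells. It had 9, 1, 0, 1, 0 and 0 tags at rest and 8, 2, 3, 0 and 0 after depolarization. Resting replicate 1 (0.279%) and depolarized replicate 2 (0.209%) were the highest of their conditions by share of a library's tags, and the groups overlapped. Slc1a2, the main glutamate transporter of astrocytes, had 4 tags in resting replicate 1, 1 in resting replicate 6, 5 in depolarized replicate 1 and 0 elsewhere.

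The glutamine and neutral amino acid transporters of family Slc38, 4 genes, carried 6 tags in resting and 10 in depolarized libraries. Slc38a2 had 1 tag at rest, in replicate 6, and 3, 1, 2, 0 and 0 after depolarization, and Slc38a1 had 1 tag in each of 3 libraries. The vesicular transporters that mark glutamatergic and GABAergic neurons, Slc17a7 and Slc32a1, had 1 tag each, both in resting replicate 1. None of these genes passed the test on summed tags described below in its main form.

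Ion, chloride, phosphate and pH transporters, 9 genes, carried 33 tags, 16 at rest and 17 after depolarization. Slc4a3, a chloride-bicarbonate exchanger, had 2, 0, 0, 2, 0 and 1 tags at rest and 5, 2, 0, 0 and 0 after depolarization, so the groups overlapped. Slc12a5, the chloride extruder of mature neurons, had 2 tags in resting replicate 1 and 1 in resting replicate 2, then 2, 0, 1, 0 and 1 after depolarization. Slc9a5, a sodium-proton exchanger, had 2 tags in resting replicate 1, 1 in resting replicate 4 and 0 in every depolarized library. With 3 counts or fewer in both conditions no fold change is given.

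Metal transporters, 8 genes, also carried 33 tags, 13 in resting and 20 in depolarized libraries. Of these tags 26 lay on 4 genes of the zinc transporter family Slc39. Slc39a6, a plasma membrane zinc importer, had 5 tags in resting replicate 1, 2 in resting replicate 4, 5 in depolarized replicate 1 and 0 in the rest. Slc39a7, which releases zinc from the endoplasmic reticulum, had 3, 0, 0, 0, 0 and 1 tags at rest and 4, 1, 0, 0 and 0 after depolarization. The 5′ UTR of Slc39a6 overlaps Elp2 on the opposite strand and that of Slc39a7 overlaps Gm20427 on the same strand, so their tags are uncertain. In all, 13 solute carrier 5′ UTRs overlap another annotated gene, 11 of them on the opposite strand, Slc32a1 among these.

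The 11 sugar and monocarboxylate transporters carried 8 tags in resting and 24 in depolarized libraries. Their mean share of a library was 0.0895% ± 0.112 (SD, n = 6) at rest and 0.242% ± 0.159 (n = 5) after depolarization, with ranges of 0 to 0.274% and 0 to 0.393% that overlapped. Slc2a3, the main glucose transporter of neurons, had 0 tags in all 6 resting libraries and 1, 0, 7, 0 and 1 after depolarization. With 3 tags put in place of 0 over the resting libraries, its summed tags were 2.09-fold higher per tag of depth after depolarization. No counting interval is given for this value, and 7 of its 9 tags came from depolarized replicate 3. The groups overlapped, since depolarized replicates 2 and 4 also had 0. Slc2a1, the glucose transporter of the blood-brain barrier and glia, and Slc16a1, a lactate transporter, had 1 tag each, both in depolarized replicate 1.

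The 6 genes of the nucleotide sugar transporter family carried 21 tags, 11 from resting and 10 from depolarized libraries. Slc35f1, a family member with no settled substrate, had 2 tags at rest, both in replicate 1, and 5, 1, 2, 0 and 0 after depolarization, a ratio of 2.78 (0.556 to 26.9). Slc35e4, another such member, had 3 tags in resting replicate 1, 2 in resting replicate 4 and 1 in depolarized replicate 3, a ratio of 0.139 (0.00294 to 1.24). Both intervals include 1. The summed counts of Slc35e4 were 2 and 1 without replicate 1, too few for a fold change, and 5 and 0 without replicate 3.

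Transporters of nucleosides, vitamins, choline, lipids and organic ions, 7 genes, carried 19 tags in resting and 25 in depolarized libraries. Their mean share of a library was 0.116% ± 0.224 (SD, n = 6) at rest and 0.319% ± 0.149 (n = 5) after depolarization. The ranges, 0 to 0.558% and 0.175% to 0.546%, overlapped. Over summed tags the shares went the other way, at 0.294% and 0.269%. Slc22a17, a receptor for the iron-carrying protein lipocalin-2, had 12 tags in resting replicate 1, 1 in resting replicate 4 and 0 in the other resting libraries, and 8, 0, 1, 2 and 0 after depolarization. Slc29a4, a plasma membrane monoamine transporter, had 3 tags at rest, all in replicate 1, and 4, 0, 1, 1 and 0 after depolarization. By share of a library's tags, resting replicate 1 and depolarized replicate 4 were the highest of their conditions for both genes, and the groups overlapped. The remaining gene, Slc49a4, named after its values were seen, had 1 tag.

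**Figure D3:**
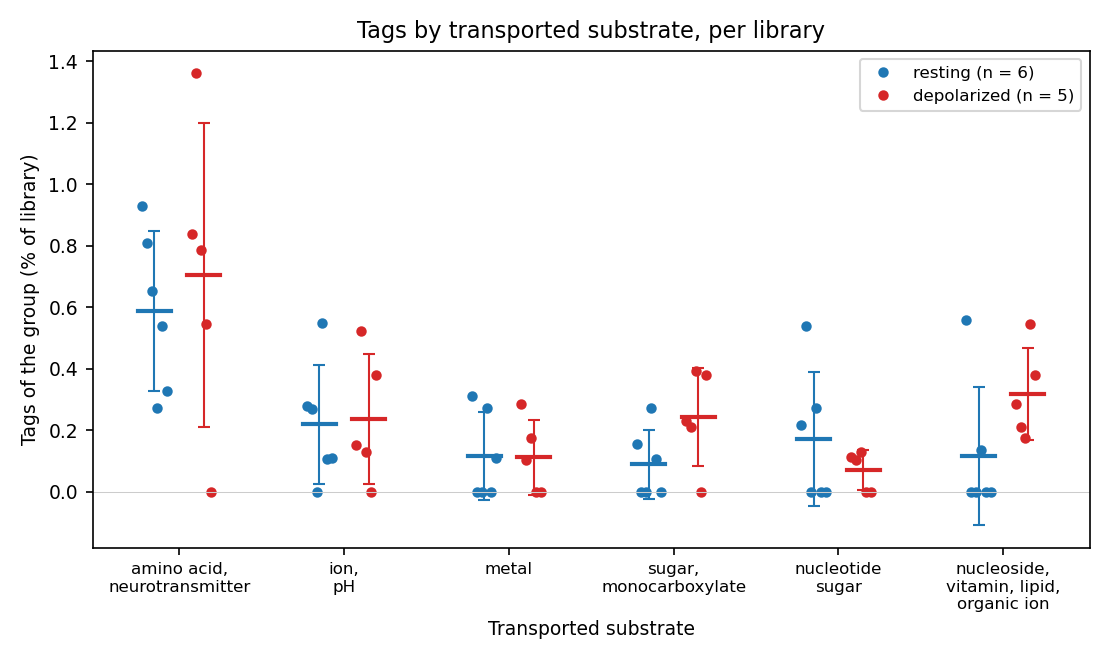
Percent of each library's tags on 6 substrate groups of solute carriers, at rest (blue, n = 6) and after depolarization (red, n = 5), with 1 point per library, thick bars for the mean and error bars for 1 SD. The 2 conditions overlap in every group, and most groups have libraries at 0.

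Across libraries, no solute carrier passed the replicate-aware test. edgeR's quasi-likelihood test with Benjamini-Hochberg adjustment covered 317 5′ UTRs with at least 10 tags, 9 of them solute carriers, and called 0 higher and 0 lower at an adjusted P below 0.05, a background of 0% in each direction. At an unadjusted P below 0.05 it gave 24 higher and 1 lower, with 0 and 0 solute carriers, and DESeq2 gave 0 and 0 adjusted and 2 and 2 unadjusted. Slc6a17 had a log2 fold change of 1.42 ± 1.09 (SE), with an edgeR adjusted P of 0.745. Slc35f1 (1.41 ± 1.53) also had an estimate above 1, and Slc39a6 (-1.04 ± 1.40) had the lowest. Without replicate 4 Slc39a6 was at -0.25, above Slc22a17 at -0.51, and without replicate 2 Slc6a17 was at 0.66. Slc1a2 was at -0.56, Slc22a17 at -0.31, Slc6a8 at -0.01 and Slc4a3 at -0.01, all with SEs above 1. The log2 fold change was above 0 for 4 of the 9, against 66.6% of all tested 5′ UTRs, with medians of -0.01 and 0.52. This contrast turned without replicate 4, where 6 of the 9 were above 0 and the medians were 0.76 and 0.61, and with all 5′ UTRs of at least 1 tag the medians were 0.52 and 0.42. The values given here are from TMM scaling and are to be read against its median of 0.52. With library totals in place of TMM that median was 0.38. Slc2a3 had too few tags for this test. With every 5′ UTR of at least 1 tag tested, its edgeR adjusted P was 0.382.

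The study's threshold on summed tags, a binomial P below 0.2 on depth-scaled sums, carries no spread between libraries. 4 solute carriers had more tags after depolarization at this threshold (6.90% of 58), against a background of 171 of 3280 5′ UTRs (5.21%), and 2 had fewer (3.45%), against 148 (4.51%). Both shares were near the background. Slc2a3 (exact binomial P = 0.00781), Slc6a17 (P = 0.122) and Slc35f1 (P = 0.180) were among the 4, and the 2 were Slc9a5 (P = 0.125) and Slc35e4 (P = 0.125). None passed after Benjamini-Hochberg adjustment over all 5′ UTRs, where the exact binomial adjusted P of Slc2a3 was 0.434. Median log2 fold changes on this scale were 0.20 for solute carriers and 0.33 for all tagged 5′ UTRs.

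The split of these calls differed between forms of the test. With TMM scaling 233 5′ UTRs had more tags and 90 fewer, and with unrounded raw sums 211 and 357. Within replicate numbers, which the labels tie to a shared preparation, an exact test on unscaled, unrounded counts, which leaves out resting replicate 5 for want of a partner, gave 140 (4.39%) and 321 (10.1%) of 3190. Among the 55 solute carriers it covered, 3 had more tags (5.45%; Slc6a17, Slc2a3 and, named after its values were seen, Slc22a23) and 8 had fewer (14.5%), of which Slc22a17, Slc9a5 and Slc35e4 are described above. Slc35f1 passed neither there nor with unpaired raw sums, so these values do not separate pairing from scaling and rounding. Leaving out replicate numbers in turn, Slc2a3 did not pass without replicate 3, and without replicate 1 it was the only solute carrier that did. Slc6a17 was also lost without replicate 2 or 4, Slc9a5 without replicate 3 or 4 and Slc35e4 without replicate 4. Slc35f1 did not pass with any replicate number left out.

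**Figure D4:**
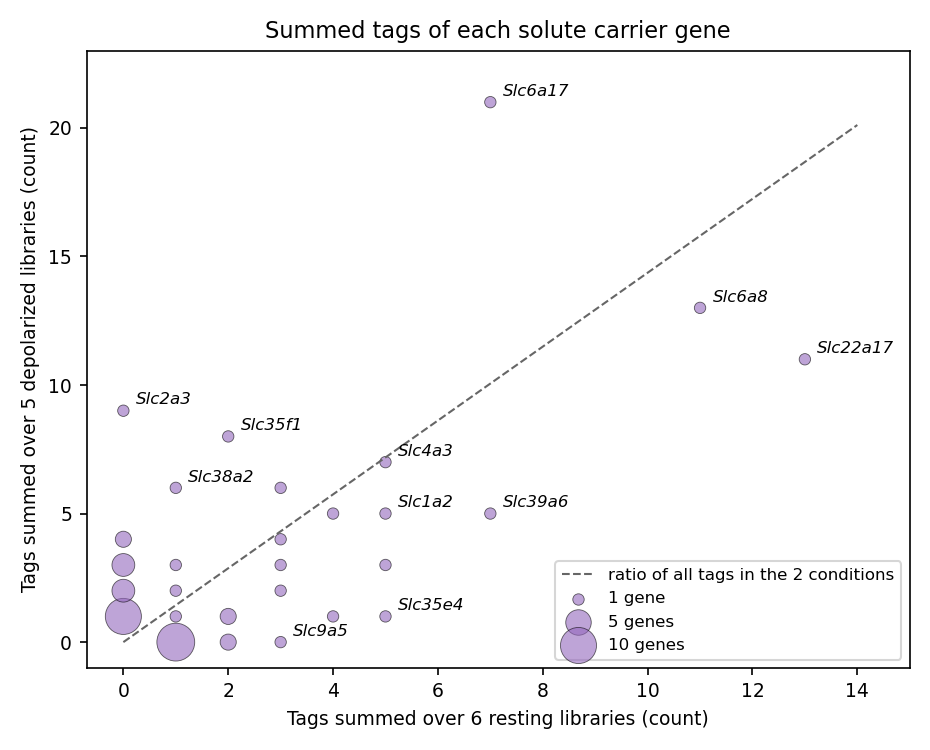
Tags of tagged solute carriers summed over the 6 resting libraries (x axis) and the 5 depolarized libraries (y axis), with circle area giving the number of genes at a position and the dashed line the ratio of all tags in the 2 conditions. Slc2a3, Slc6a17 and Slc35f1 lie above the line and Slc9a5 and Slc35e4 below it, while most genes have 3 tags or fewer in each condition.

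Tag totals of different genes depend on 5′ UTR length, so levels were compared per kilobase of 5′ UTR. Length was taken from the longest GENCODE M21 protein-coding transcript of each gene that has a 5′ UTR, which matched 58 of the 59, and may differ from the transcript on which the authors counted. Over all libraries Slc22a17 had 170 tags per kilobase (exact Poisson 95% interval 109 to 253) on a 141-base 5′ UTR. This value rests on the transcript, since the longest 5′ UTR annotated for Slc22a17, of 744 bases, gives 32.3. Slc7a5, a large neutral amino acid transporter named after its values were seen, had 68.2 from only 6 tags, all in replicate 1, on a 5′ UTR that overlaps Gm20388 on the opposite strand. Slc6a17 had 56.0 (37.2 to 80.9), Slc4a3 55.6, Slc29a4 44.6 and Slc6a8 37.6, all with overlapping intervals. Slc1a2, at 16.0 (7.66 to 29.4), was the lowest of the genes with at least 10 tags, and its interval lay below that of Slc6a17. These values sum tags over libraries of unequal depth. With each library scaled to its total and averaged, Slc35f1 was below Slc1a2 at rest, and Slc1a2 was again the lowest after depolarization. Slc7a5 was then below Slc6a17 in both conditions. Solute carriers as a whole had 11.04 tags per kilobase, as summed tags over summed bases, against 12.2 over all listed 5′ UTRs. The medians per 5′ UTR went the other way, at 8.59 for solute carriers and 6.99 for all.

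**Figure D5:**
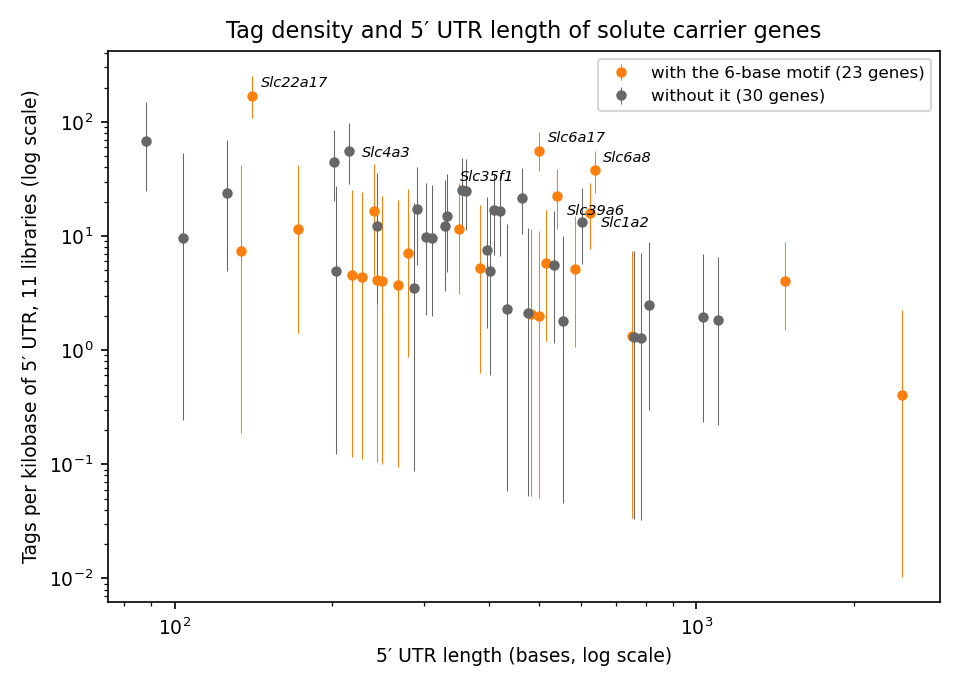
Tags per kilobase of 5′ UTR over the 11 libraries against 5′ UTR length, both on log scales, for tagged solute carriers with a 5′ UTR of at least 20 bases, with exact Poisson 95% intervals and orange for genes with the 6-base motif. The named genes have at least 10 tags, and genes with 1 tag form the lower edge, which falls with length by construction.

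Solute carrier 5′ UTRs had a median length of 370.5 bases against 306 over the 3316 listed 5′ UTRs with a sequence, and a slightly lower median GC content, 65.2% against 65.9%. CGCGGC, searched on the mRNA strand only, was found in 25 of 58 (43.1%), against 1219 of 3316 (36.8%), at 1.47 and 1.55 sites per kilobase. Among genes with at least 10 tags it was found in 7 of 9 solute carriers and in 165 of 314 of all 5′ UTRs (52.5%), and among solute carriers with fewer tags in 18 of 49 (36.7%). Solute carriers with the motif had 12.7 tags per kilobase and those without it 9.52, against 13.2 and 11.4 over all 5′ UTRs. In Slc6a17 358 bases separated the motif from the start codon, and in Slc22a17 117 and 25 bases separated the sites from it. Slc4a3 and Slc35f1 were the 2 of the 9 without it, although a longer 5′ UTR annotated for Slc4a3 held 2 copies. Slc8a3, a sodium-calcium exchanger named after its values were seen, held the most, 4, and had 3 tags.

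An upstream ATG was present in 48 of 58 solute carrier 5′ UTRs (82.8%), against 66.6% of all listed 5′ UTRs, and an upstream reading frame closed by a stop before the start codon in 45 (77.6%), against 60.9%. Per length the frequencies were alike, at 6.68 and 6.46 upstream ATGs per kilobase. The motif and a closed upstream frame occurred together in 21 (36.2%), against 23.8%. Slc6a17, Slc6a8 and Slc1a2 had both, while Slc22a17 had the motif and no upstream ATG. Slc2a3, without the motif, had 3 upstream ATGs, each opening a closed frame. These shares are descriptions without a test, and the lists differ in length.

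Other membrane transporters, 38 genes such as ion pumps, ABC transporters and vesicle proteins, held 122 tags at rest and 250 after depolarization, with mean shares of 1.98% ± 0.364 (SD, n = 6) and 2.00% ± 0.805 (n = 5). At the study's threshold 3 of the 37 with a tag had more (8.11%, against the 5.21% over all 5′ UTRs) and 2 had fewer (5.41%, against 4.51%). 1 of them, the sodium pump subunit gene Atp1b1, with 32 tags at rest and 110 after depolarization, also passed after Benjamini-Hochberg adjustment of the exact binomial test (adjusted P = 0.000686). Most of its depolarized tags came from replicate 1. Depolarized replicates 1, 2, 3, 4 and 6 had 86, 6, 15, 2 and 1, and resting replicates 1 to 6 had 12, 1, 2, 6, 6 and 5. edgeR called 0 of the 7 tested in either direction at an adjusted P below 0.05, the smallest being 0.829. Cell type markers were read from the same tables. Of 10 neuronal markers 5 were listed, with 167 tags, 143 of them on Syt1, a calcium sensor of synaptic vesicles. Their share of a library ranged from 0.155% to 4.25% at rest and from 0.546% to 1.88% after depolarization. Of 8 astrocyte markers 1 was listed, Slc1a2 itself, of 7 microglial markers 1 (Aif1, 1 tag), of 6 endothelial markers 1 (Slc2a1, 1 tag) and of 8 markers of the oligodendrocyte lineage 0. Excitatory and inhibitory neuron markers had 9 and 7 tags. Whether these cell types bear on the counts of Slc1a2 or Slc2a1 was not tested. The paper reports finding no contaminating non-neuronal cells in its cultures, by immunofluorescence and transcriptomic analyses.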

How the data were processed

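The authors aligned collapsed CLIP reads to mm10, counted tags on the 5′ UTR of the longest known transcript of each gene, and deposited raw counts per library, without normalization. The strand setting of the counting, the treatment of reads with several positions and the rule that chose the listed 5′ UTRs are not given in the sources used here. An unnamed entry (0 tags, 0%) was left out. The labels give 6 replicates per condition, other than the number in the study's text. The solute carriers, lists and tests were chosen with earlier results of these data known.

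Genes are named if they had at least 10 tags, passed the test on summed tags, were among the 10 solute carriers with the most tags (ties kept), or were on a list of 21 textbook transporters, of which 12 were listed. Single values of 2 genes that meet this rule are not reported here, though counts and totals include them. Gene groups follow the family number in the symbol.

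edgeR 4.0.16 (R 4.3.3; glmQLFit, TMM, library size over all 5′ UTRs) tested 5′ UTRs with at least 10 tags, with condition as the term and Benjamini-Hochberg adjustment, and DESeq2 1.42.0 was an alternative. For the test on summed tags, the sums of both conditions were brought to their mean total and rounded, and an exact binomial test (two-sided, expected share 0.5) was run, with a pseudocount of 0.1 in fold changes. Folds against 0 tags use a floor of 3 counts over the group. Intervals (95%, Wilson for shares) and floors cover counting error only. The scripts were checked on simulated counts. For edgeR these were deeper than the libraries here, so that check does not show which changes it could detect at this depth. Resting and depolarized samples of a replicate were pooled after reverse transcription, per the labels. Deviations from group means correlated within replicate numbers 1, 2, 3, 4 and 6 (r = 0.269, 0.262, 0.193, 0.310 and 0.255 across 317 5′ UTRs, which are not independent replicates). Correlations between different numbers were not computed, so these values alone do not show that the numbers pair the libraries. A chi-square test over 5′ UTRs with at least 5 tags differed in 50 of 55 library pairs (P below 0.05). The pairs that did not differ all lay among the libraries of replicates 4 to 6. Every pair of a library from replicates 1 to 3 with one from replicates 4 to 6 differed. Sequence features come from GENCODE M21, and tag totals, figures and features were computed with Python 3.11.15, pandas 2.3.3, scipy 1.17.1 and matplotlib 3.10.9. Alternatives were other scalings, filters, thresholds and pseudocounts, the replicate block, libraries left out, and all 12 tables as labelled.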

Additional observations from a re-analysis of the deposited data

Results flagged for a closer look

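In 6 of 22 groups of libraries, over 11 measures, 1 library lay far from the others by Dixon's criterion, which chance alone meets in about 1 group in 20, here 1.1 groups, when values vary smoothly. That rate does not hold for sparse counts, and in 4 of the 6 every other library of the group was at 0, so that any single tagged library meets the criterion. The values are percent of a library's tags. 4 of the 6 were replicate 1, the deepest library of each condition. At rest, replicate 1 held 0.0620% for Slc35f1, against 0 in every other resting library, and 0.372% for Slc22a17, against 0.137% in the next. After depolarization replicate 1 held 0.0954% for Slc1a2 and 0.0954% for Slc39a6, against 0 in the other 4 libraries. Slc35e4 was at 0.274% in resting replicate 4, from 2 tags, and at 0.0437% in depolarized replicate 3, from 1 tag.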

How the results depend on the processing

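edgeR called 0 solute carriers in either direction in every alternative run. Over all 5′ UTRs its number higher was 1 with library totals and 0 to 7 when each replicate number was left out, 7 without replicate 1 and 1 without replicate 6, and its number lower stayed at 0. With the replicate block it called 0 and 0 of 304. On summed tags, 5′ UTRs with more and fewer tags numbered 84 and 41 at P below 0.05, 14 and 10 after Benjamini-Hochberg adjustment, 44 and 17 with replicates 4 to 6 alone, and 98 to 168 and 43 to 151 with each replicate number left out. Those with fewer numbered 90 with TMM scaling, 357 with raw sums and 321 with the replicate block. For solute carriers the numbers with more and fewer were 1 and 0 at P below 0.05, 0 and 0 after adjustment, 0 and 0 with replicates 4 to 6 alone, and 1 to 4 and 0 to 4 with each replicate number left out. Those with more and fewer numbered 6 and 1 with TMM scaling, where Slc9a5 no longer passed, 5 and 5 with raw sums and 3 and 8 with the replicate block. The cause was not tested. Log2 fold changes near 0 changed sign with 5′ UTRs of at least 1 tag tested, to 0.041 for Slc4a3 and 0.10 for Slc6a8, and ranged from -0.70 to 0.87 and from -0.28 to 0.35 with a replicate number left out. The difference in mean share of tags (depolarized minus resting) was 0.391 percentage points and 0.237 to 0.638 with a replicate number left out, 0.504 in replicates 1 to 3 and 0.0862 in replicates 4 to 6. The longest 5′ UTR of each gene, an alternative added after seeing the data as was leaving out replicate 1 from the summed shares, put CGCGGC in 26 of 58 solute carriers (44.8%) and 36.01% of all. Depth is also a limit, since 21 of the 59 genes had 1 tag.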
